A study of Mus musculus with 7 samples.

Results

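Aldolase, enolase, pyruvate kinase and lactate dehydrogenase each come in tissue-specific forms, and 9 genes that encode such isozymes were followed across 7 mouse tissues: Aldoa and Aldoc for aldolase, Eno1, Eno2 and Eno3 for enolase, Pkm and Pklr for pyruvate kinase, and Ldha and Ldhb for lactate dehydrogenase. They were chosen by name, as a list, out of 50226 gene names in the deposited table, of which 19087 had at least 1 FPKM in any tissue, and all 9 members were among these. Skeletal muscle, interscapular brown adipose tissue (BAT), cortex, liver, kidney and 2 white fat depots, visceral (VAT) and subcutaneous (SCAT) adipose tissue, came from wild-type (wt) C57BL/6 mice aged 36 weeks and kept on NCD, the diet that all 7 samples share. The strain is spelled as in the labels, and the paper names lean C57BL/6N mice as the source of the 7 tissues. RNA depleted of rRNA was made into strand-specific libraries and sequenced from both ends, with 1 library per tissue, and the labels do not say how many animals each holds. Because no tissue has a replicate, no order or difference below could be tested, none has a replicate check, and every value is a description of these libraries. Levels are given as FPKM, fragment counts per unit of transcript length and of library size, which can be set side by side between genes because they are per length, and the fragment counts and the depth behind them are unknown. In such whole-tissue RNA, fewer cells of a type and less RNA per cell cannot be told apart.

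Glycolysis turns glucose into pyruvate, and lactate dehydrogenase exchanges pyruvate and lactate. Aldolase splits fructose bisphosphate into trioses, enolase makes phosphoenolpyruvate, and pyruvate kinase takes its phosphate to form ATP and pyruvate. Vertebrates carry several genes for each enzyme: the A form of aldolase and the beta form of enolase (Eno3) are known from muscle, aldolase C and gamma enolase (Eno2) from brain, the L form of pyruvate kinase (Pklr) from liver, the A subunit of lactate dehydrogenase (Ldha) from muscle and liver and the B subunit (Ldhb) from heart and other oxidative tissues.

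The isozyme genes of an enzyme are related but far from identical, which bears on whether a fragment can be placed on 1 of them. In the coding sequences of the GENCODE annotation of GRCm38, aligned pairs were identical at 75.7% of bases for Aldoa and Aldoc, 75.1% for Eno1 and Eno2, 76.7% for Eno1 and Eno3, 77.8% for Eno2 and Eno3, 70.0% for Pkm and Pklr and 71.5% for Ldha and Ldhb. The longest unbroken stretch that any such pair shared was 31 bases, between Pkm and Pklr, and no window of 101 bases, the read length that the labels give for these libraries, was the same in transcripts of 2 members. For enolase, pyruvate kinase and lactate dehydrogenase, the stretches of 60 coding bases below are those in which the other listed isozymes differ least from the first. Differences between Eno2 and Eno3 did not enter the choice. The stretches are shown 5′ to 3′ to make visible how many differences remain even there. In the first line of each enzyme, capitals mark bases at which any other isozyme differs, and in the other lines bases that differ from the first. The enolase lines lie in exon 7, at chr4:150245121-150245180 (plus strand), chr6:124766262-124766321 (minus) and chr11:70660666-70660725 (plus) of GRCm38, and Eno2 and Eno3 each differ from Eno1 at 5 bases.
Eno1: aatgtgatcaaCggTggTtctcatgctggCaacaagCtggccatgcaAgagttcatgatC
Eno2: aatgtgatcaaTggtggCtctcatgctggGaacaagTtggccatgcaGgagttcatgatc
Eno3: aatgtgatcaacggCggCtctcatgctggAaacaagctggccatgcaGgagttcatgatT
The pyruvate kinase lines lie in exon 7, at chr9:59671600-59671659 and chr3:89142617-89142676 (both plus), and differ at 6 bases.
Pkm: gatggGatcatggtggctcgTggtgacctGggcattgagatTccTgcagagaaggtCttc
Pklr: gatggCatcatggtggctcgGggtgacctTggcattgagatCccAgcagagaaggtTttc
The lactate dehydrogenase lines lie in exon 4, at chr7:46850237-46850296 (plus) and chr6:142498560-142498619 (minus), and differ at 7 bases.
Ldha: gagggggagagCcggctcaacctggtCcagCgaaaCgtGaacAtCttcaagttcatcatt
Ldhb: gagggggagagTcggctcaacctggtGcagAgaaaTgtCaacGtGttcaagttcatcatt

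The 9 members differed in how far their highest tissue stood above the rest. Enrichment was called where a gene reached at least 1 FPKM in a tissue and exceeded every other tissue by at least 2 in log2(FPKM + 0.1), which is 4-fold. This held for 4 of the 9 members, Aldoa and Eno3 in skeletal muscle and Aldoc and Eno2 in cortex, beside 23.0% of the 19087 named genes with at least 1 FPKM. The 2 members in skeletal muscle stand beside 3.63% of named genes enriched there, and the 2 in cortex beside 8.34%. Skeletal muscle was the highest tissue of 4 members (Aldoa, Eno3, Pkm and Ldha), cortex of 2, and BAT (Eno1), kidney (Ldhb) and liver (Pklr) of 1 each, while neither white adipose tissue was the highest for any. Of the 19087 named genes, 4446 were highest in skeletal muscle, 3958 in cortex, 3109 in liver, 2693 in BAT and 1979 in kidney. The white depots were the highest tissue of 1894 (SCAT) and 1008 (VAT). The log2 ratio of the highest over the next tissue had a median of 1.72 over the members and 0.72 over all 19087 genes.

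**Figure D1:**
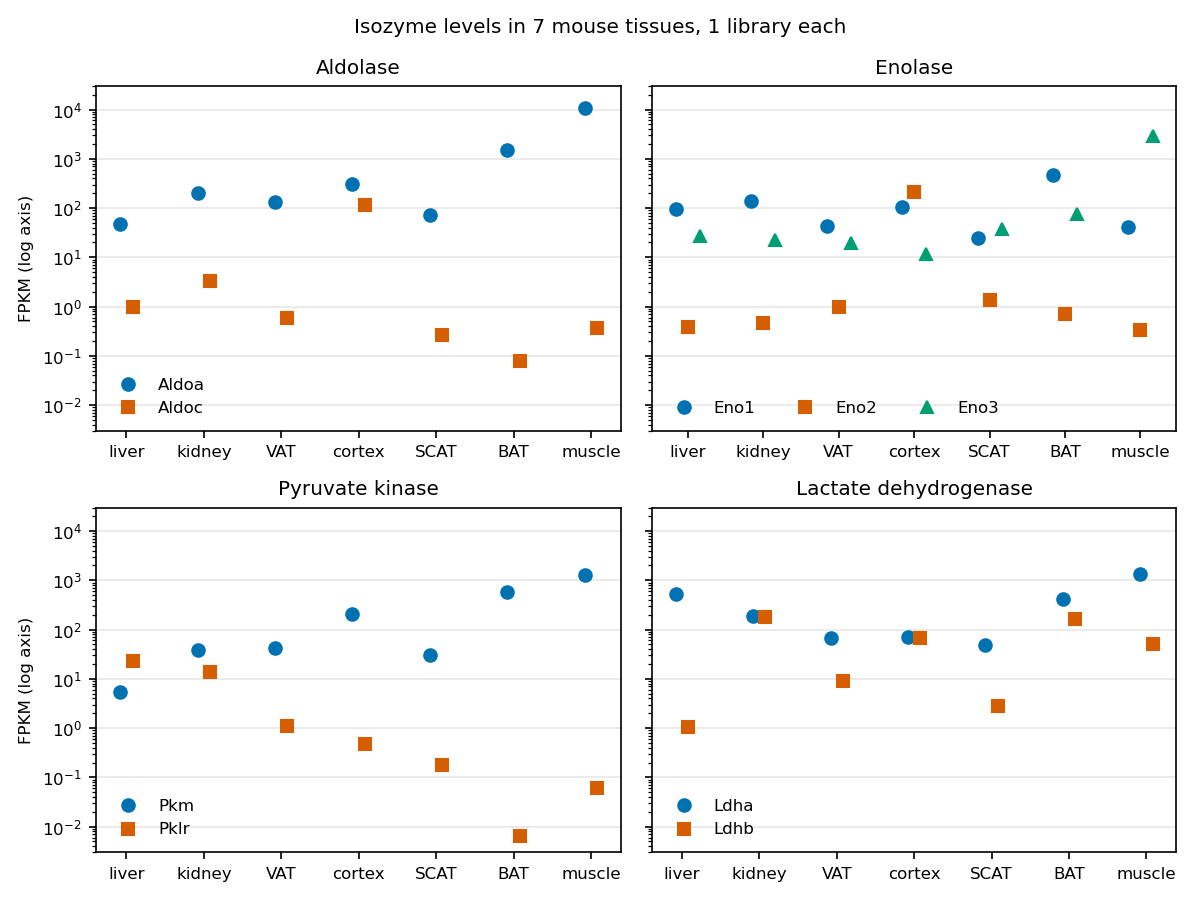
FPKM on a log axis of the 9 isozyme genes in the 7 tissues, 1 panel per enzyme and 1 point per gene and library, offset sideways for legibility. Aldoa and Eno3 reach 10537 and 2937 FPKM in skeletal muscle, Aldoc and Eno2 stand out in cortex at 118 and 212 FPKM, and Pklr is above Pkm in liver alone.

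Aldoa, aldolase A, lies on chr7:126795234-126800751 (minus strand, GRCm38). GENCODE gives this name to 2 genes, and the locus in the table runs on to base 126830219. Its level may therefore not be that of this gene alone. Aldoa was the most abundant member in every tissue but liver, where Ldha and Eno1 were higher. In kidney this order turned when all loci of a name were summed, to 238 FPKM for Ldha against 203 for Aldoa. From high to low, its level was 10537 FPKM in skeletal muscle, 1525 in BAT, 302 in cortex, 203 in kidney, 131 in VAT, 73.4 in SCAT and 46.9 in liver. Skeletal muscle was 6.91-fold above BAT, a log2 ratio of 2.79, and 225-fold above liver, the lowest tissue. Without the BAT library the log2 ratio, then over cortex, was 5.12. Aldoc, aldolase C, a form of brain (chr11:78322968-78327781, plus strand), had 118 FPKM in cortex, 3.33 in kidney, 0.994 in liver, 0.596 in VAT, 0.370 in skeletal muscle, 0.271 in SCAT and 0.0800 in BAT. Cortex was thus the only tissue above 3.33 FPKM, and its log2 ratio over kidney was 5.11. Even there Aldoa was 2.56-fold above Aldoc, which made up 28.1% of the summed FPKM of both, whereas in the other 6 tissues the share of Aldoc in the same sum was at most 2.08%. Shares and sums of aldolase here are those of Aldoa and Aldoc alone and do not stand for all aldolase transcripts of a tissue.

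Enolase had the most divided pattern, in that each of its 3 genes was the most abundant one in at least 1 tissue: Eno2 in cortex, Eno3 in skeletal muscle and SCAT and Eno1 in the other 4. Eno1, alpha enolase, which most cells carry (chr4:150236721-150248879, plus strand), had 460 FPKM in BAT, 140 in kidney, 104 in cortex, 97.6 in liver, 42.6 in VAT, 41.4 in skeletal muscle and 25.2 in SCAT. Eno1 was highest in BAT, with a log2 ratio of 1.72 over kidney, and skeletal muscle, where total enolase was highest, was the second lowest tissue. Eno3, the muscle form (chr11:70657202-70662513, plus strand), had 2937 FPKM in skeletal muscle, 75.1 in BAT, 37.4 in SCAT, 27.4 in liver, 22.9 in kidney, 19.6 in VAT and 11.5 in cortex. The log2 ratio of skeletal muscle over BAT was 5.29 (6.29 over SCAT, the next tissue without the BAT library), and within muscle Eno3 was 71.0-fold above Eno1 and held 98.6% of enolase. The locus of Eno3 in the table also carries the name Rnf167, a ubiquitin ligase gene next to it, so its lower values cannot be assigned to Eno3 alone. This touches the SCAT library, in which Eno3 held 58.4% of enolase and was 1.48-fold above Eno1.

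Eno2, gamma or neuron-specific enolase (chr6:124760053-124769673, minus strand), had the largest log2 ratio of the 9 members. Its level was 212 FPKM in cortex, 1.39 in SCAT, 0.995 in VAT, 0.723 in BAT, 0.457 in kidney, 0.387 in liver and 0.332 in skeletal muscle. Cortex exceeded SCAT, the next tissue, by 7.15 on the log2 scale. In cortex Eno2 was 2.04-fold above Eno1 and 18.5-fold above Eno3 and held 64.7% of enolase, with 31.8% for Eno1 and 3.50% for Eno3. The summed FPKM of 5 neuron markers was 458 in cortex and at most 32.9 elsewhere, where skeletal muscle owed nearly all of it to Camk2a (32.7 FPKM), and that of 4 astrocyte markers was 248 in cortex. Which of these cells carried Aldoc and Eno2 was not measured. Of the other enolase genes, Eno4 ranged from 0.244 to 1.99 FPKM and Eno1b was listed at 0 in all tissues but VAT (0.00462 FPKM).

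**Figure D2:**
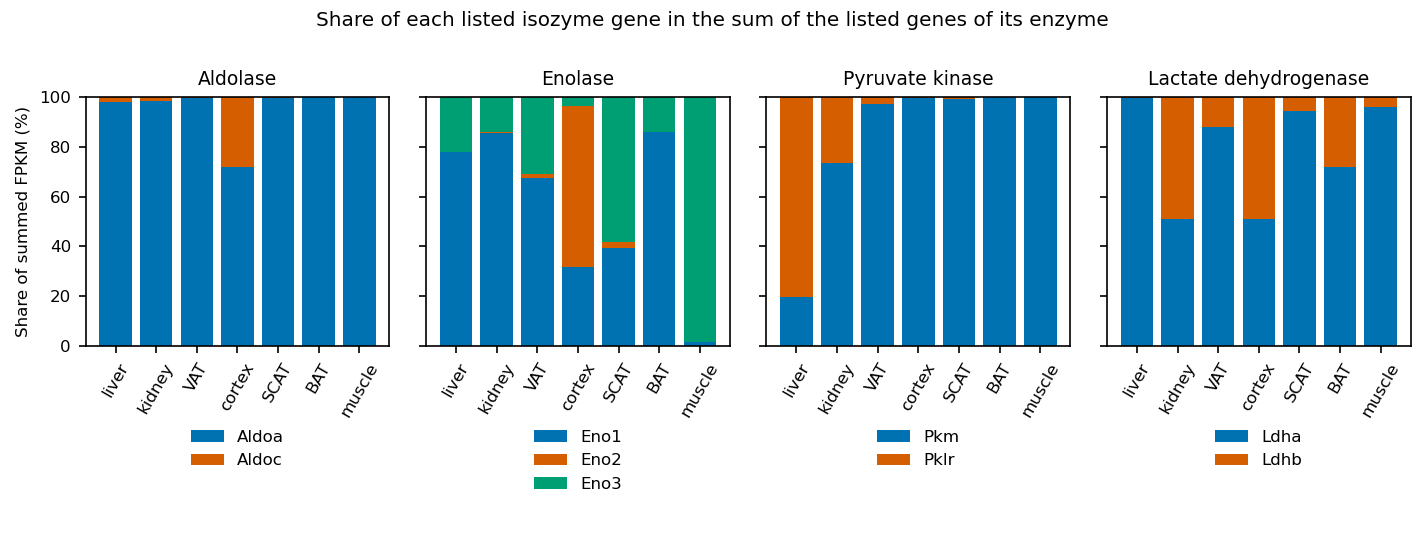
Stacked bars of the share of each isozyme gene in the summed FPKM of the listed genes of its enzyme, in percent, for the 7 tissues (1 library each), with 1 panel per enzyme. Aldoc takes 28.1% of the aldolase pair in cortex, Eno2 64.7% of enolase in cortex, Eno3 98.6% in muscle, Pklr 80.6% of pyruvate kinase in liver, and Ldhb 49.2% and 48.8% of lactate dehydrogenase in kidney and cortex.

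Pyruvate kinase was divided between liver and the rest. Pkm (chr9:59656368-59679375, plus strand), whose transcript is spliced into a muscle-type and a proliferation-type form that the gene-level table does not separate, had 1308 FPKM in skeletal muscle, 566 in BAT, 209 in cortex, 42.7 in VAT, 38.8 in kidney, 30.6 in SCAT and 5.51 in liver. It was highest in skeletal muscle by 1.21 on the log2 scale over BAT, which missed the 4-fold rule, and without the BAT library the ratio, then over cortex, was 2.64 and Pkm was counted as enriched in muscle. Pklr (chr3:89136142-89146784, plus strand), which gives the liver form and, from another start, the red cell form, had 22.9 FPKM in liver and 13.9 in kidney, then 1.12 in VAT, 0.476 in cortex, 0.175 in SCAT, 0.0619 in skeletal muscle and 0.00642 in BAT. Liver and kidney were thus the only tissues with more than 1.12 FPKM, and the log2 ratio of 0.72 between them was small. Liver was the tissue in which Pklr led, with 80.6% of pyruvate kinase, 4.15-fold above Pkm. In kidney Pkm was 2.80-fold above Pklr, which held 26.3%, and in the other 5 tissues the share of Pklr was at most 2.56%.

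The Pklr level needs a reservation, because 21.8% of the 101-base windows of its transcript also occur in annotated transcripts of Hcn3, an ion channel gene, whose levels were 6.77 FPKM in liver, 2.14 in kidney and at most 0.643 elsewhere. The summed FPKM of 4 erythroid markers was 274 in liver, 308 in kidney, 493 in VAT and 449 in BAT. The share of red cell transcripts in the Pklr signal was not tested. Among the regulators on the pathway list, Hnf4a, a nuclear receptor of liver and kidney, had 207 FPKM in liver, 159 in kidney and at most 2.42 in the other 5 tissues. Mlxipl, the carbohydrate-responsive factor ChREBP, had 22.6 FPKM in liver, 8.86 in kidney, 10.9 in BAT and 9.15 in skeletal muscle.

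Lactate dehydrogenase works as a tetramer of A and B subunits, and the balance of their transcripts ran from nearly all A to near parity. Ldha (chr7:46841475-46855627, plus strand) had 1331 FPKM in skeletal muscle, 528 in liver, 422 in BAT, 189 in kidney, 70.2 in cortex, 67.9 in VAT and 48.5 in SCAT. Ldhb (chr6:142490249-142507957, minus strand) had 183 FPKM in kidney, 166 in BAT, 67.01 in cortex, 51.8 in skeletal muscle, 9.23 in VAT, 2.78 in SCAT and 1.04 in liver. Ldha was above Ldhb in every library, by 508-fold in liver, 25.7-fold in skeletal muscle, 17.4-fold in SCAT, 7.36-fold in VAT and 2.55-fold in BAT, but by only 1.05-fold in cortex and 1.03-fold in kidney. The share of Ldhb was accordingly 49.2% in kidney, 48.8% in cortex and 28.2% in BAT, and it was 11.97% in VAT, 5.42% in SCAT, 3.75% in skeletal muscle and 0.196% in liver. Kidney and BAT differed little in Ldhb, by 0.14 on the log2 scale, and Ldha in muscle exceeded liver by 1.33.

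One of the annotated starts of Ldha and that of Ldhb differed in the sequence before them. Both windows are the 250 bases upstream of a RefSeq start (GRCm38.p6), shown because the balance of these subunits differed so widely among tissues. Capitals mark matches on either strand to 4 motifs. The first is the E box CACGTG and the second the hypoxia response core ACGTG, which also lies within the first. The third is the GC box, spelled GGGCGG, and the last the TATA box, spelled TATAAA. The Ldha window, chr7:46845554-46845803 (plus strand), holds 2 E boxes, 2 GC boxes and 5 matches to ACGTG, of which each E box gives 1 on each strand. The 50 bases after this start lie in no GENCODE transcript of Ldha, whereas those after its second RefSeq start do, and the window of that second start holds none of the 4 motifs, as is the case for Ldhb. The Ldhb window, chr6:142507958-142508207 (minus strand), holds none of the 4 motifs.
Ldha: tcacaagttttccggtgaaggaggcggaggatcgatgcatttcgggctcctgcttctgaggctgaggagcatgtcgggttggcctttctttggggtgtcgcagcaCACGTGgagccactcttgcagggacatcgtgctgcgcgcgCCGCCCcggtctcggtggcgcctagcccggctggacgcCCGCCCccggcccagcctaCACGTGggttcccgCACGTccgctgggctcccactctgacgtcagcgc
Ldhb: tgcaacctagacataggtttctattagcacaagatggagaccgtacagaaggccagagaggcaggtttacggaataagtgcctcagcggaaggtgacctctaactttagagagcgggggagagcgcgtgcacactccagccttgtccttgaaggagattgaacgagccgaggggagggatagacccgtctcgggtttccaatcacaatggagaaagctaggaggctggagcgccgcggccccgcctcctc
Over 32851 promoter windows of the same length, 6.02% held CACGTG, 16.6% ACGTG, 32.7% GGGCGG and 12.4% TATAAA. All 9 members had windows, 17 in all, some of which overlap, and of these 1 (5.88%) held the E box, 4 (23.5%) the hypoxia response core, 7 (41.2%) the GC box and 2 (11.8%) the TATA box. The E box occurred before Ldha, the hypoxia response core before Aldoa, Pkm and Ldha, and the TATA box before Eno2 and Pklr. These matches describe the letters and do not show a site in use.

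The summed level of the listed genes of each enzyme is the total that their shares divide. Skeletal muscle had the highest sum of the listed genes for all 4 enzymes, 10537 FPKM for aldolase, 2979 for enolase, 1308 for pyruvate kinase and 1382 for lactate dehydrogenase. The lowest sums were 47.9 for the aldolase pair and 28.4 for pyruvate kinase in liver, 63.2 for enolase in VAT and 51.3 for lactate dehydrogenase in SCAT. From lowest to highest this was a range of 220-fold for aldolase, 47.1-fold for enolase, 46.1-fold for pyruvate kinase and 26.9-fold for lactate dehydrogenase. The balance of the last 2 steps also varied: the sum for lactate dehydrogenase was 18.6 times that for pyruvate kinase in liver, 7.07 in kidney, 1.76 in VAT, 1.67 in SCAT, 1.06 in muscle, 1.04 in BAT and 0.655 in cortex, the only library with more pyruvate kinase.

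A single gene held at least 80% of the summed FPKM of the listed genes of its enzyme in 19 of the 28 pairs of enzyme and tissue. This was so for aldolase and pyruvate kinase in 6 of 7 tissues each, for lactate dehydrogenase in 4 and for enolase in 3. The exceptions in cortex were aldolase, enolase and lactate dehydrogenase, which made cortex the tissue with the most mixed listed isozymes, and kidney was mixed in pyruvate kinase and lactate dehydrogenase. Over the 7 tissues, the members whose log2(FPKM + 0.1) ran most alike were Aldoa and Pkm (Pearson r = 0.94, n = 7 tissues), Aldoc and Eno2 (0.85) and Aldoa and Eno3 (0.84), and those that ran most against each other were Pkm and Pklr (-0.79) and Aldoa and Pklr (-0.63). These values are descriptions over 7 libraries that all 9 members share.

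BAT had the second highest level of Aldoa, Eno3 and Pkm and the third of Ldha, and its library also held transcripts of muscle. The 6 measured markers of fast muscle fibres stood at 1.02% to 3.13% of their skeletal muscle FPKM in BAT (median 1.79%), and the 4 of slow fibres at 19.3% to 24.7%. At the muscle-type isozymes, BAT stood at 2.56% of muscle for Eno3, 2.23% for Pgam2 (muscle phosphoglycerate mutase), 3.01% for Pfkm (muscle phosphofructokinase) and 1.83% for Slc16a3, the lactate exporter MCT4, all within the range of the fast fibre markers. Tissues with few muscle marker transcripts also carried these 4 genes. Pfkm was higher in cortex (43.8 FPKM) than in BAT (34.6), and Pgam2 had 6.51 FPKM in kidney beside 12.4 in BAT. The Eno3 locus had 37.4 FPKM in SCAT beside 75.1 in BAT. Because it also carries the name Rnf167, these lower values cannot be assigned to Eno3 alone. The fast fibre markers summed to 4.57 FPKM in cortex, 7.40 in kidney and 78.3 in SCAT, where Tnnt3 alone had 70.2. Slc16a3 stood at 1.80% of muscle in VAT and 1.79% in SCAT too, and its 2.40 FPKM in BAT was below liver (3.08), kidney (2.68) and cortex (2.59). Aldoa, at 14.5%, lay between the fast and the slow fibre markers, while Ldha at 31.7% and Pkm at 43.3% lay above both sets. Ldhb at 320% and Eno1 at 1111% were higher in BAT than in muscle. How much of the BAT level of each isozyme came from muscle fibres was not tested.

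**Figure D3:**
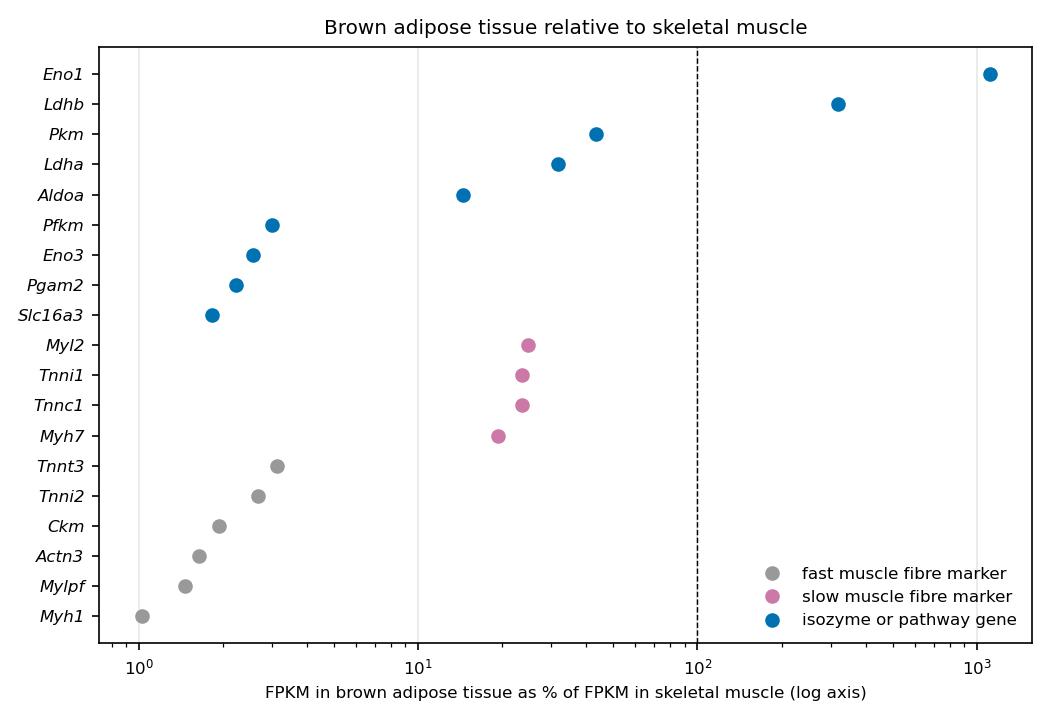
FPKM in BAT as a percentage of FPKM in skeletal muscle, on a log axis, for 6 fast and 4 slow muscle fibre markers and for 9 isozyme and pathway genes, 1 point per gene and the dashed line at 100%. Eno3, Pgam2, Pfkm and Slc16a3 fall among the fast fibre markers, whereas Aldoa, Ldha, Pkm, Ldhb and Eno1 lie above them.

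At the same steps, other isozymes were higher in BAT than in skeletal muscle. Pfkl, the liver-type phosphofructokinase, had 169 FPKM in BAT and at most 24.4 in the other tissues, and it was 4.89-fold above Pfkm there, against at most 2.48-fold in the other tissues, while in muscle Pfkm was 560-fold above Pfkl. Pgam1, the phosphoglycerate mutase of most cells, had 104 FPKM in BAT and 2.77 in muscle, where Pgam2 had 557. Pgam1 was 8.39-fold above Pgam2 in BAT, less than in cortex (17.2-fold) and liver (15.7-fold). Eno1 was 6.12-fold above Eno3 in BAT, beside 9.07-fold in cortex and 6.08-fold in kidney, so that the Pgam and enolase pairs did not set BAT apart from tissues other than muscle.

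The white adipose libraries held transcripts known from other organs. In VAT, 5 hepatocyte markers stood at 0.559% to 2.70% of their liver FPKM (median 0.701%), and beside them Pklr stood at 4.90%. The epididymis markers Crisp1, Lcn5 and Adam7 had 1386, 1119 and 134 FPKM in VAT and at most 1.64 in any other tissue, and Lcn9 was listed at 0 in all 7. The germ cell isozymes Ldhc (3.06 FPKM), Pgk2 (2.999) and Gapdhs (1.07) were highest in the VAT library, with skeletal muscle next at 0.719, 0.511 and 0.208. Ldhc had a locus on each strand, as read from the order of the table. The value given is that of the minus strand, and the locus on the plus strand had 2.24 FPKM in VAT and 0.796 in skeletal muscle. In SCAT, 4 lymphocyte markers summed to 107 FPKM and 4 pancreatic acinar markers to 104, against at most 3.25 and 4.73 in any other tissue. The part of these cells in the values of the members was not tested.

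The defining markers of each labelled tissue were present, except that Dio2, a brown fat deiodinase, had 0.387 FPKM in BAT. The summed FPKM of 6 kidney tubule markers was 25600 in kidney and at most 10.3 elsewhere, that of 4 brown adipocyte markers 7549 in BAT and at most 67.5 elsewhere, and that of the fast fibre markers 35649 in skeletal muscle and 819 in BAT (6 markers, without Acta1 and Myh4, which have no value in muscle). The 5 adipocyte markers summed to 1439 in BAT, 1277 in VAT, 497 in SCAT and at most 59.8 elsewhere. Without Alb, whose liver value is missing, the other 5 hepatocyte markers summed to 8766 in liver, 195 in cortex, nearly all of it Ttr, and at most 63.6 elsewhere.

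The other genes of glycolysis and pyruvate use were described by the same rule. Of 55 further genes, 53 had at least 1 FPKM, and 7 of these (13.2%) met the 4-fold rule, beside 23.0% of all named genes, with a median log2 ratio of 0.94. Skeletal muscle was the tissue of 5 of the 7, Pfkm (1149 FPKM, log2 ratio 4.71), Pgam2 (557 FPKM, 5.47), Slc16a3 (131 FPKM, 5.37), Gapdh (3164 FPKM, 2.61) and Pfkfb4, a regulator of phosphofructokinase (14.0 FPKM, 2.71). Pfkl was enriched in BAT (2.79) and Pgk2, of germ cells, in VAT (2.34). Of the steps with a widely used gene, Gpi1, Tpi1 and Pgk1 were highest in muscle without reaching the 4-fold rule, with log2 ratios of 1.26 for Gpi1, 1.83 for Tpi1 and 0.79 for Pgk1, and BAT was next in each.

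The steps after pyruvate had another pattern. Of the 12 genes of pyruvate entry and use, 0 met the 4-fold rule, beside 23.0% of the 19087 named genes. BAT was the highest tissue of 8 of the 12, beside 2693 of the 19087. These 8 were the carrier subunits Mpc1 and Mpc2, the dehydrogenase subunits Pdha1, Pdhb, Dlat, Dld and Pdhx, and the kinase Pdk1. Skeletal muscle was the next tissue for all 8, and Mpc1, for instance, had 683 FPKM in BAT and 356 in muscle. Pdk4, which blocks pyruvate dehydrogenase, had 1151 FPKM in muscle, 796 in BAT and 2.03 in cortex. Pcx, pyruvate carboxylase, was highest in liver, at 131 FPKM, with 109 in kidney. Of the 3 main lactate transporters, Slc16a3 belonged to muscle, Slc16a1 was highest in BAT (34.6 FPKM) and Slc16a7 in liver (25.1 FPKM). None of the 14 regulators on the list was enriched by the rule, beside the same 23.0% of named genes.

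**Figure D4:**
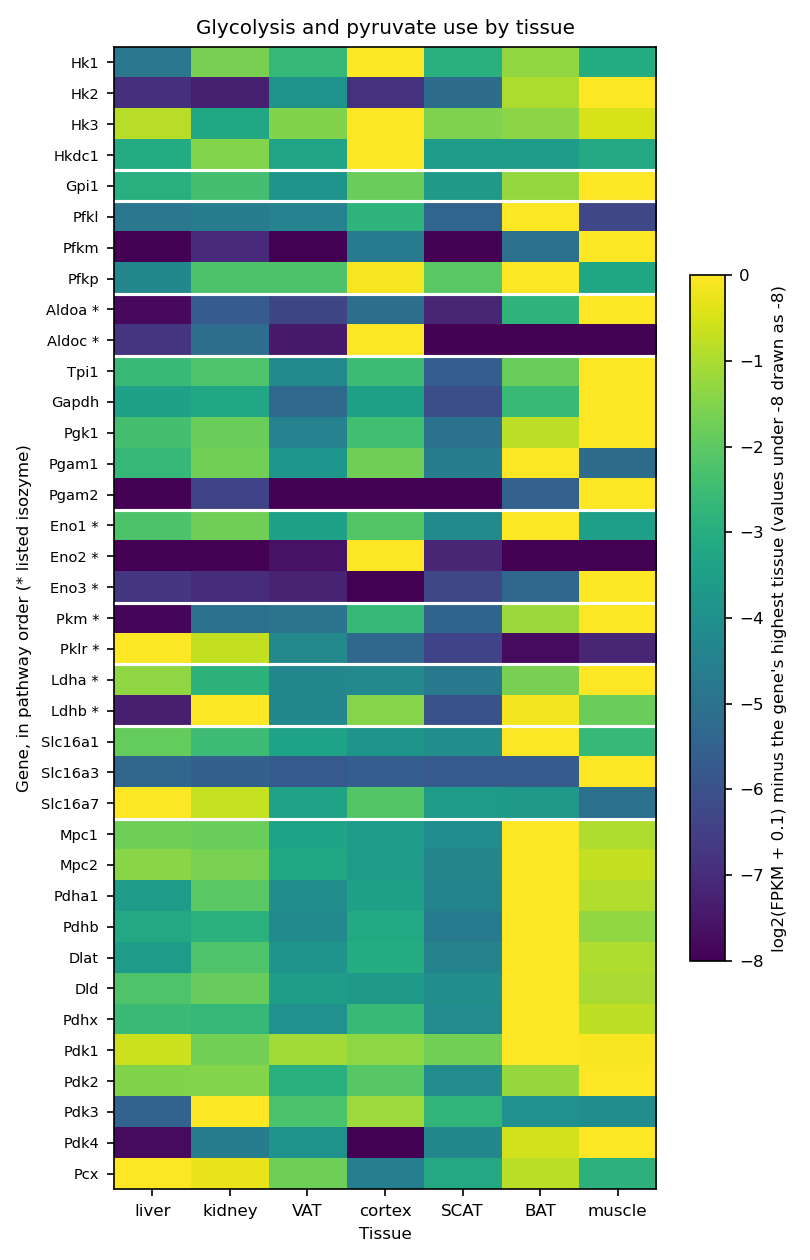
Heat map of log2(FPKM + 0.1) minus each gene's highest tissue for glycolysis and pyruvate use in pathway order, rows genes and columns the 7 tissues (1 library each), with listed isozymes starred and values below -8 drawn as -8. Yellow marks the highest tissue, which is BAT for 8 of the 12 genes at the bottom and skeletal muscle for Aldoa, Eno3, Pkm and Ldha.

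The profiles most like those of Pkm, Ldhb and Ldha were those of pseudogenes, and 2 of these share sequence with the member. Among 9108 to 9110 named genes with at least 10 FPKM in any tissue, the best match of Pkm over the 7 tissues was Gm6560 (r = 1.00), of Ldhb Gm5514 (r = 1.00) and of Ldha Gm11814 (r = 1.00), which GENCODE lists as processed pseudogenes. Gm6560 stood at 6.31% to 7.64% of Pkm in the 7 tissues and shares 152 windows of 101 bases with it, and Gm5514 stood at 7.37% to 10.7% of Ldhb and shares 102. Gm11814 stood at 1.61% to 2.65% of Ldha and shares no such window. A read from such a shared window fits Pkm or Ldhb and its pseudogene equally well. Of the windows of Eno1, 58.8% occur in other annotated genes, chiefly Eno1b and Gm4735, but those 2 were listed at 0.00492 FPKM or less.

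For the other members the closest profiles were mostly protein-coding genes. They were Gbas, Srl and the pseudogene Gm5276 for Aldoa (r = 0.99 each), Ids and Mink1 for Aldoc (0.99 each), and Gng13 (1.00), Sept3 (1.00) and Tmem150b (1.00) for Eno2. Eno3 ran most like Asb2, Eif3e and the pseudogene Gm5525 (0.99 each), Pklr like Aass, Iyd and Pcbd1 (0.99 each), and Eno1 like a locus that carries the names Gm20671, Pisd and Prr14l (0.99). After these pseudogenes, Pkm was followed by Mbnl2 and Cdc42 (0.99 each), Ldha by Fscn2, at a locus shared with Nploc4, and Fbxo3 (0.99 each), and Ldhb by Fut8 and Mcrs1 (0.96 each). These are likenesses over 7 libraries, chosen as the highest among all genes compared.

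Finally, 6 of the 9 members had a second locus of the same name on the opposite strand, as read from the order of the table. As a percentage of the level used, its level ran over a narrow range for Ldha and Aldoc and a wider one for the others: 23.8% to 26.8% for Ldha in the 7 tissues, 12.3% to 19.1% for Pkm, 6.26% to 10.6% for Ldhb, 3.65% to 7.89% for Eno1 and, in the 2 tissues with at least 1 FPKM, 37.5% to 38.2% for Aldoc and 12.7% to 32.2% for Eno2. The locus used lay on the annotated strand for all 9. When both loci were summed, Ldha held 54.8% of lactate dehydrogenase in kidney and 54.8% in cortex in place of 50.8% and 51.2%, and Aldoa 64.9% of the aldolase pair in cortex in place of 71.9%. Adding both loci left the most abundant listed gene of every enzyme the same in all 7 tissues, but Pklr fell to 77.7% of pyruvate kinase in liver. The second locus of Pkm also carries the names Parp6 and AC160637.1, so its level cannot be assigned to Pkm alone. With the loci summed, 18 pairs of enzyme and tissue, in place of 19, had a gene with at least 80%.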

How the data were processed

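Total RNA-Seq of 7 mouse tissues was analysed, with 1 library per tissue. The authors removed adapters with flexbar and rRNA reads with Bowtie2, aligned reads to GRCm38 (Ensembl annotation) with STAR and ran cufflinks, cuffmerge and cuffdiff. The deposited values are FPKM per locus and tissue, from 21 pairwise comparisons. The authors' columns of log2 fold changes, test statistics and p- and q-values in that table were not used. Library type and scaling settings of cuffdiff are not given in the sources used here. The table holds no fragment counts, so depth and precision are unknown.

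The 151 loci with status FAIL were dropped, zeros with status LOWDATA were treated as missing, and a name with several loci took the one with the highest FPKM. Comparisons used log2(FPKM + 0.1), on which differences of weakly expressed genes come out too small, and no p-value was computed. Strand was read from the order of loci. Coordinates, exons and coding sequences came from GENCODE vM21, promoters from RefSeq. Alternatives covered the pseudocount, minimum, fold, scaling, loci, libraries and set of isozymes.

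Named genes were the members, other isozymes, called pathway genes, genes of a step that a member result needed and the 3 closest profiles of each member; markers and remaining pathway genes named in addition were chosen after their values were seen. Some genes that these lists and rules name are not reported here. Members and lists were chosen with earlier results of these data known. Python 3.11.15, pandas 2.3.3, NumPy 2.4.6, Biopython 1.88 and matplotlib 3.10.9 were used.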

Additional observations from a re-analysis of the deposited data

How the results depend on the processing

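No paired analysis was possible because each tissue has 1 library, which also means that the leave-1-out of replicates could not be run. Of the 28 counts recomputed under the alternatives, 26 stayed within 1.5 times the main count. With a 2-fold in place of a 4-fold rule, 7 members and 23 other pathway genes were counted as enriched, in place of 4 and 7. Of 56 recomputed shares of a leading gene, 31 moved by at least 0.05 percentage points, the most being Aldoa in cortex, from 71.9% to 64.9% with loci summed. Without the BAT library the log2 ratios of 5 members moved, from 2.79 to 5.12 for Aldoa, 5.29 to 6.29 for Eno3, 1.21 to 2.64 for Pkm and 0.14 to 1.45 for Ldhb, while Eno1 was then highest in kidney (0.42). Eno2 moved from 7.15 to 8.01 without the VAT and SCAT libraries and to 6.48 with a pseudocount of 1. The fold rule and the minimum FPKM could not change these ratios, and the treatment of loci with status FAIL or LOWDATA changed none of them. Division by a median-of-ratios factor moved the libraries by between -0.49 (SCAT) and 0.38 (skeletal muscle) on the log2 scale, and the log2 ratios of the members then ranged from 0.37 (Ldhb) to 6.89 (Eno2), with the same 4 members called. The number of pairs with a leading listed gene ranged from 15 of 28 at 90% to 24 at 67%, and was 13 of 20 without the VAT and SCAT libraries. Depth is unknown, so how precise any low FPKM is could not be said.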
